A study of Mus musculus with 12 samples.

Results

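Periportal hepatocytes of liver tissue were selected on measured values. The scored hepatocyte nuclei of each Liver sample were ranked by a central-to-portal score and divided into 4 bins of equal size, and the lowest bin was taken, which gave 3140 of 12552 scored nuclei. The score was log2 of (central UMIs + 1) over (portal UMIs + 1). A UMI (unique molecular identifier) counts 1 captured RNA molecule. The central UMIs were those of Cyp2e1, Cyp1a2, Slc1a2, Glul, Oat, Lgr5, Tbx3 and Cyp2c29, and the portal UMIs those of Hal, Cyp2f2, Gls2, Hsd17b6, Etnppl, Sds, Amdhd1 and Cryl1. Nuclei were scored where the authors' table called them Hepatocytes, gave at least 2000 UMIs and placed them outside cluster 19. The 12552 scored nuclei came from 14922 annotated hepatocyte nuclei, 20024 Liver nuclei and 53467 nuclei in the whole series. Each of the 8 mice gave between 132 and 549 of the selected nuclei.

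Single-nucleus RNA was measured in liver tissue (Liver), freshly isolated cells (Cell Suspension) and hepatocytes kept in culture (Primary Hepatocytes) of 8 wild-type mice. The labels give the strain as C57BL6J, while the study's methods describe adult, chow-fed male C57BL/6NTac mice under avertin. Liver was a lobe tied off and frozen after calcium-free perfusion and before collagenase, so it was perfused tissue. Cell Suspension was taken after collagenase digestion and low-speed washes, and Primary Hepatocytes after culture on collagen with insulin and dexamethasone. Samples with the same number were taken to come from the same mouse.

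Blood enters the liver lobule at the portal vein and leaves at the central vein, and hepatocytes along this path carry out different tasks. Hepatocytes near the portal vein are known for gluconeogenesis, urea formation and amino acid breakdown, with more oxygen at hand. Hepatocytes near the central vein are known for glutamine synthesis, bile acid synthesis and drug metabolism, under Wnt signals released by the endothelium of the central vein.

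The 16 score genes were selected on measured values and are described here without a test. Among the selected nuclei of the 8 samples, Hal, which starts histidine breakdown, ranged from 301 to 1868 counts per 1000000 (CPM) with a median of 1386. In the highest-scoring bin, taken as the central end, its median was 9.95. Cyp2f2, a portal cytochrome, had medians of 380 and 4.94 CPM, and Sds, serine dehydratase, of 540 and 4.74. The central genes ran the other way, with medians of 20.8 and 2596 CPM for Cyp2e1, 6.81 and 573 for Glul (glutamine synthetase) and 1.41 and 266 for the R-spondin receptor Lgr5. Between 47.0% and 64.7% of the selected nuclei of a mouse held no central UMI at all, and the median nucleus held 23 to 75 portal UMIs.

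The upper bound of the score lay between -4.88 and -3.17 over the 8 mice. The last nucleus inside and the first outside had nearly the same score, but not always the same UMIs. In mouse 4 both had 1 central and 58 portal UMIs, and in mouse 3 the inner one had 2 and 42 and the outer one 0 and 13. Scoring each nucleus after thinning to 2000 UMIs kept 73.3% of the nuclei in the bin, and leaving Cyp2e1 and Cyp2f2 out of the score kept 83.8%. Of 53128 distinct barcodes 337 were found in more than 1 pool, and 33 of the selected nuclei carried such a barcode. By the authors' clusters, the selected nuclei made up 55.8% of the scored Liver nuclei in cluster 5, 0.974% in cluster 9 and none in clusters 18 and 23. In the other 5 clusters (6, 11, 13, 15 and 22) they made up 16.6% to 28.1%. Of the 2303 scored nuclei in cluster 5, mice 1, 4 and 7 gave 853, 517 and 907. In clusters 6, 11, 13 and 15 nearly all scored nuclei came from 1 mouse. These were mice 6 (1819 of 1854), 5 (1760 of 1766), 8 (1182 of 1247) and 3 (1381 of 1405). The lowest of 4 equal bins was taken in each mouse, so the shares in these clusters follow largely from the selection.

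All other genes were tested with edgeR on sums of UMIs per mouse and bin, with the 16 score genes removed. The score and these genes were read in the same nuclei, so a gene that varies with any score gene within nuclei, for whatever reason, moves with the bin. The bins are ranks of RNA and not measured positions in the lobule. The median nucleus held 10210 UMIs in the lowest bin and 10678 in the highest (medians over 8 mice, two-sided exact paired permutation test, adjusted p = 0.135), and it held fewer in the lowest bin in 6 of 8 mice. The mean difference was -1092 UMIs, and -1735 when nuclei were thinned before scoring (exact paired permutation test, adjusted p = 0.0134). The spliced share of UMIs was higher in the lowest bin in 8 of 8 mice, at a median of 19.4% against 18.0% (exact p = 0.00781, the smallest that 8 pairs allow, adjusted p = 0.0156).

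The selected nuclei carried hepatocyte RNA, which follows from choosing them among nuclei annotated as Hepatocytes. The summed level of 10 hepatocyte markers ranged from 13864 to 19928 CPM in the lowest bin and from 8717 to 13837 in the highest. Its median was 15683 CPM in the lowest and 15680 in the second bin. The endothelial list stood at medians of 53.7 and 64.7 CPM (exact paired permutation test, adjusted p = 0.307), and 0 of its 14 genes were called higher and 1 lower. That gene was Adgrf5, at 2.34 CPM in the lowest bin, 10.1 in the highest and 1031 in pooled Liver endothelial nuclei. The Kupffer list was higher in 8 of 8 mice, 91.7 against 41.9 CPM, and 1 of its 10 genes passed the test. That gene was Slc40a1, the iron exporter, which hepatocytes also express. The biliary list was higher in 8 of 8 mice (274 against 230 CPM), with 3 of 10 tested genes called higher and 1 lower, and so was the stellate list (233 against 169 CPM), with 1 of 12 higher and 1 lower. In the second bin the Kupffer, biliary and stellate lists had medians of 90.5, 277 and 228 CPM, near those of the lowest. The leukocyte list was lower in 8 of 8 mice (15.7 against 33.2 CPM), and the 1 of its 13 genes called was Themis, at 2.14 against 17.1 CPM. What part other cell types had in the differences below was not tested.

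Of 23043 genes tested, 2470 (10.7%) were higher in the lowest than in the highest bin and 2623 (11.4%) were lower at an adjusted p under 0.05 (edgeR quasi-likelihood test with mouse as a block). At 2-fold or more, 1321 genes passed. Without mice 3, 5 and 6, which stood apart in several genes described below, 4063 genes passed. Without the block for mouse the count was 2071.

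Among genes of at least 20 CPM, the largest difference toward the portal end, 6.55 on the log2 scale, was that of Gm15883, which lies antisense to the score gene Cyp2f2. Whether the authors' counting used strand is not given in the sources used here, so its reads cannot be told apart from those of Cyp2f2. The largest difference in a coding gene was that of Cdh1, E-cadherin, which joins epithelial cells and is known to be strong around the portal vein. Cdh1 (chromosome 8, 106603351 to 106670246, GRCm38) had 166, 143, 175, 163, 114, 116, 231 and 125 CPM in the lowest bin of mice 1 to 8. In the highest bin its levels were 1.69 to 5.19 CPM, so the bins did not overlap. The log2 difference was 5.59 ± 0.15 (SE, n = 8 mice, adjusted p = 7.19e-36). Hsd17b13, a lipid droplet dehydrogenase, ranged from 246 to 379 CPM in the lowest bin and from 3.04 to 15.1 in the highest, a log2 difference of 5.37 ± 0.15 (chromosome 5, 103955440 to 103977410).

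Ctsc, the protease cathepsin C, was more uneven among mice, at 42.7, 25.8, 224, 28.2, 160, 21.3, 76.6 and 22.2 CPM in mice 1 to 8, against 0.966 to 5.09 in the highest bin. Mice 3 and 5 were the highest, and the bins still did not overlap (log2 difference 5.29 ± 0.23, adjusted p = 1.19e-26). Efna3, an ephrin ligand, had medians of 64.0 and 1.87 CPM, and Plxna2, a semaphorin receptor, of 329 and 9.23. Reck, a membrane inhibitor of metalloproteinases that also serves as a Wnt co-receptor, had medians of 43.2 and 1.88 CPM. Sulf2, which trims heparan sulfate, had medians of 58.7 and 1.37 CPM, and it overlaps Ncoa3 on the other strand, so its reads cannot be assigned with certainty. Tcf7l1, the member of the TCF family best known as a repressor of Wnt targets, had medians of 328 and 12.8 CPM. Plxna2 and Tcf7l1 were also high in pooled endothelial nuclei, at 452 and 836 CPM.

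A pair of neurotransmitter receptors was among the 12 leading genes. Chrm3, the muscarinic receptor, ranged from 21.5 to 324 CPM in the lowest bin, with mouse 3 far above the rest, and from 3.04 to 6.67 in the highest. Grm8, a metabotropic glutamate receptor, ranged from 84.8 to 326 CPM against 6.67 to 13.1. The remaining gene, ENSMUSG00000118550, has no symbol in the files and had medians of 133 and 3.43 CPM.

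**Figure D1:**
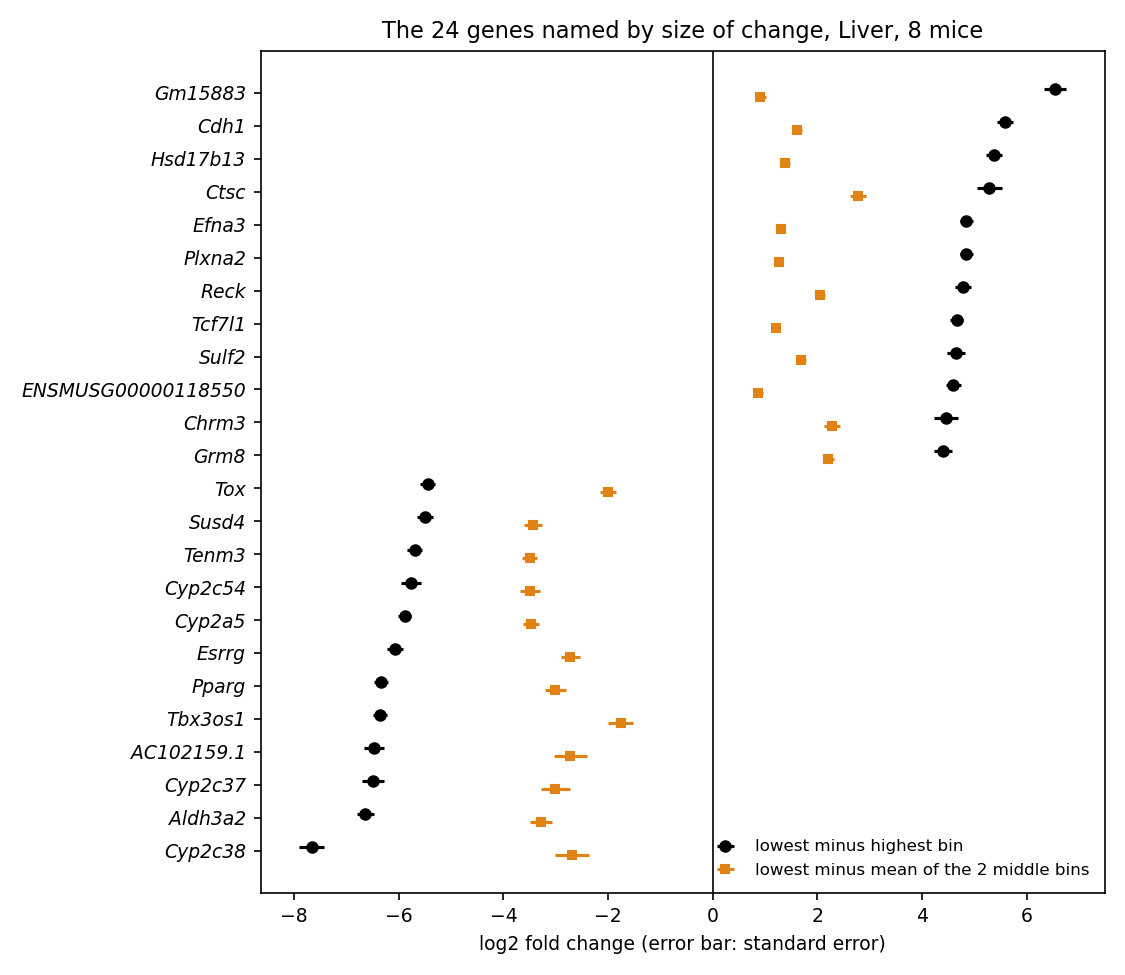
Log2 difference of the 12 genes with the largest positive and the 12 with the largest negative difference between the lowest and the highest score bin in Liver (black circles, lowest minus highest), and of the same genes between the lowest bin and the mean of both middle bins (orange squares). Bars are standard errors of the log2 difference from the fit to 8 mice. The positive genes keep a smaller share of their difference against the middle bins (0.87 to 2.78) than against the highest bin (4.40 to 6.55).

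Toward the other end, Aldh3a2, an aldehyde dehydrogenase for long-chain fatty aldehydes, was at 0 to 4.01 CPM in the lowest bin and 139 to 362 in the highest, a log2 difference of -6.64 ± 0.16 (adjusted p = 8.70e-39). Its pooled endothelial level was 30.6 CPM, above that in the selected nuclei. This was also so for other leading genes. Cyp2c38 had a median of 4.45 CPM in the lowest bin, 486 in the highest and 14.4 in endothelial nuclei. Pparg, the receptor best known from fat cells, was at 0.904 to 3.16 CPM against 114 to 180, with 28.6 in endothelial nuclei (log2 difference -6.34 ± 0.13). Esrrg, an orphan nuclear receptor, was at 5.19 to 12.4 CPM against 337 to 707, with 151 in endothelial nuclei. Free RNA was not measured, so what part of these low levels it makes up was not tested.

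Cyp2c37, Cyp2c54 and Cyp2a5, cytochromes of drug and steroid metabolism, had log2 differences of -6.49, -5.77 and -5.89. They and Cyp2c38 belong to families of near-identical copies, and the score gene Cyp2c29 is one of these, so the division of reads among them is uncertain. Tbx3os1 (-6.36) lies antisense to the score gene Tbx3 and cannot be told apart from it. Tenm3, a teneurin adhesion protein, differed by -5.70, Susd4, a complement regulator, by -5.50, and the nuclear protein Tox by -5.45. The long noncoding RNA AC102159.1 differed by -6.47. None of these 12 genes overlapped between bins. The leading genes at either end were named by size of difference and for the same sign in every mouse, which favours such separation. The share of all genes tested that did not overlap is not given here.

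The urea cycle enzymes were higher in the lowest than in the highest bin, by modest amounts. Over all genes tested 10.7% were higher and 11.4% lower between these bins, and the list counts between the ends below stand beside these shares. Of 10 genes on the urea and ammonia list 6 were higher and 3 lower, with a median log2 difference of 0.55 against 0.00 over all genes tested. Against the middle bins 3 were higher and 2 lower, with a median of 0.01. Asl, argininosuccinate lyase, ranged from 275 to 953 CPM in the lowest bin and from 84.6 to 344 in the highest, so the ranges overlapped although 8 of 8 mice moved the same way (1.86 ± 0.09). Arg1, arginase, differed by 1.48, Ass1, argininosuccinate synthase, by 1.21, Cps1, which makes carbamoyl phosphate, by 0.89 and Otc, ornithine transcarbamylase, by 0.84. Among the 3 lower genes, Glud1, glutamate dehydrogenase, differed by -0.65 and Car5a, the mitochondrial carbonic anhydrase, by -0.59.

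Glucose production genes were called in 1 direction only. Of 14 genes 12 were higher and 0 lower, with a median of 0.68. Pck1, the cytosolic step from oxaloacetate, ranged from 835 to 2196 CPM against 149 to 1510 (1.28 ± 0.10, adjusted p = 3.71e-16). Fbp1, fructose bisphosphatase, differed by 1.29 and G6pc, which releases glucose, by 0.64. The coactivator Ppargc1a, at 118 to 224 CPM against 35.6 to 70.2, did not overlap between bins (1.68 ± 0.09). Pcx, pyruvate carboxylase, had medians of 701 and 690 CPM (0.02, adjusted p = 0.785).

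Amino acid breakdown was split. Of 44 genes 16 were higher and 14 lower, with a median of -0.01. Gldc, the glycine decarboxylase, ranged from 86.8 to 511 CPM in the lowest bin and from 6.28 to 27.6 in the highest, with mice 5 and 6 the lowest of the 8 (4.19 ± 0.13). Uroc1, which follows Hal in histidine breakdown, differed by 2.80 and Ftcd, which ends that path, by 1.53. Sdsl, a relative of the score gene Sds, differed by 5.32 at a median of 15.7 CPM. The taurine genes Csad and Cdo1 were lower, at -2.34 and -1.28. Of 15 amino acid transport genes 10 were higher and 2 lower between the ends, and 2 were higher and 2 lower against the middle bins. Slc7a2, the arginine carrier, ranged from 1856 to 10040 CPM against 1160 to 6175 (1.14), and Slc3a1, a subunit of the cystine carrier, differed by 2.20. Slc16a10, the aromatic amino acid carrier, was lower at -2.40 with no overlap, at 94.6 to 431 CPM against 506 to 2451.

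**Figure D2:**
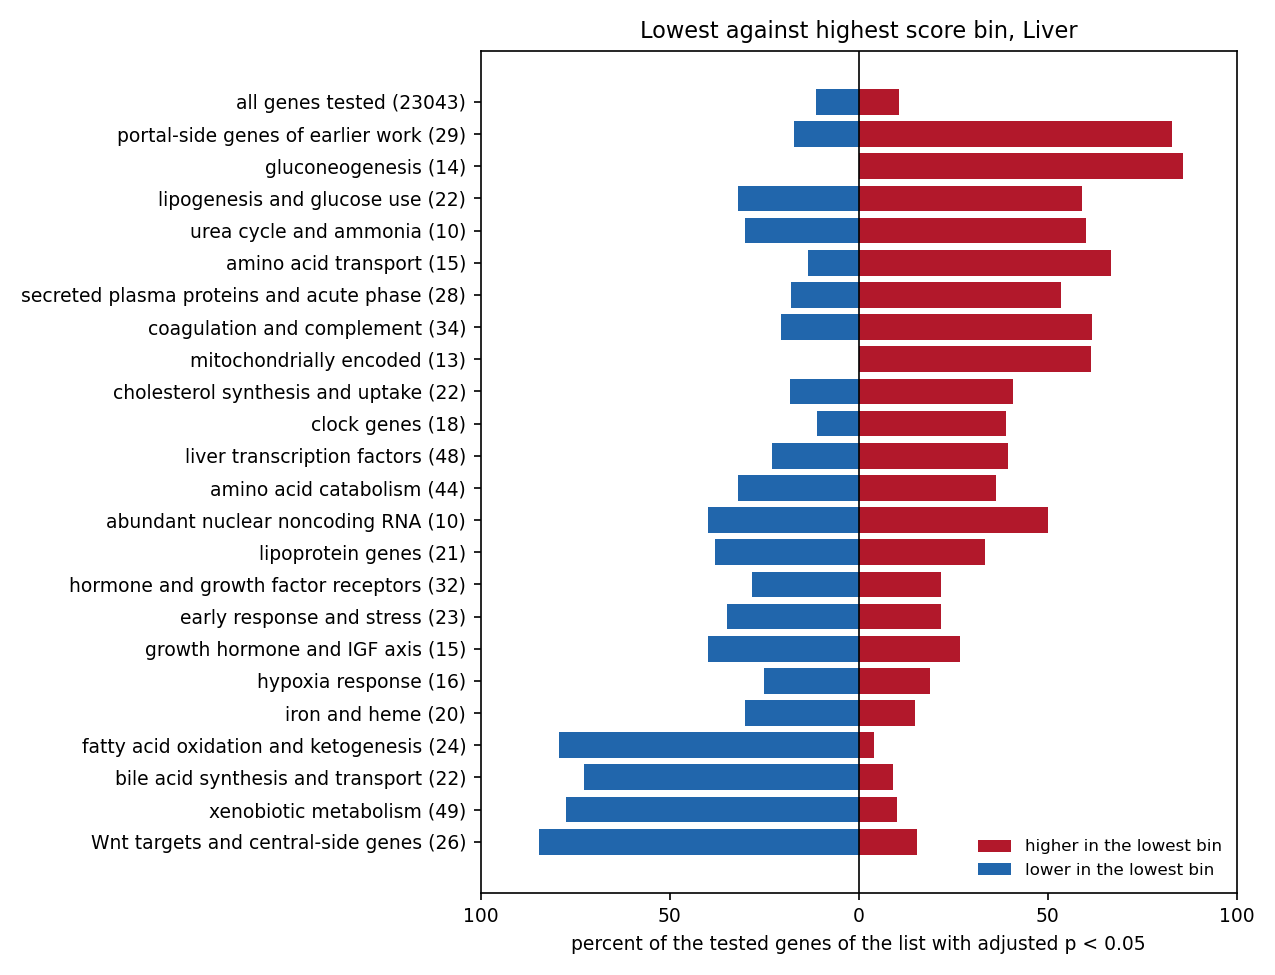
Percent of the tested genes of each list that were higher (red, right) or lower (blue, left) in the lowest than in the highest score bin of Liver, with the number of genes tested in parentheses and all 23043 genes in the top row. Lists are ordered by median log2 difference. Gluconeogenesis has no lower gene, while fatty acid oxidation, bile acid, xenobiotic and Wnt lists lie mostly to the left.

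Fatty acid oxidation was nearly one-sided, and lipogenesis was not. Of 22 lipogenesis and glucose use genes 13 were higher and 7 lower, with a median of 0.55. Acly, which makes cytosolic acetyl-CoA, was at 139 to 667 CPM against 31.1 to 112, with no overlap (2.44 ± 0.08). Fasn, fatty acid synthase, differed by 1.14 and Pnpla3, a lipid droplet lipase, by 3.10 at a median of 8.95 CPM. Among the lower genes was Cd36, the fatty acid receptor, at -2.38 with a median of 3.10 CPM. Of 24 fatty acid oxidation and ketogenesis genes 1 was higher and 19 lower, with a median of -0.37. The largest difference was in Cyp4a14, a PPARα target, at 0.364 to 20.8 CPM against 1.31 to 139 (-3.12). Acaa1b, a peroxisomal thiolase, differed by -1.86 and the receptor Ppara by -0.53. The higher gene was Cpt1a, the carnitine gate of mitochondria, by 0.16, a call lost on spliced UMIs, with no block and without mice 3, 5 and 6.

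Cholesterol synthesis and uptake had 9 higher and 4 lower of 22 genes, beside 10.7% and 11.4% of all genes tested. Sqle, squalene epoxidase, was at 46.2 to 74.3 CPM against 21.3 to 38.5 (1.05), whereas Msmo1, a later sterol step, differed by -0.60. Bile acid genes were 16 lower and 2 higher of 22, with a median of -0.48. Cyp7a1, the rate-limiting enzyme, was at 1.48 to 24.0 CPM against 155 to 628 (-5.37 ± 0.14). The pooled endothelial level was 19.6 CPM. Cyp27a1, of the alternative route, was at 152 to 246 against 455 to 788 CPM (-1.56). Slco1b2, an uptake carrier for bile acids and drugs, was at 612 to 1027 against 3763 to 5431 CPM (-2.58), and Abcb11, the bile salt export pump, was higher by 0.31, a call lost with no block and without mice 3, 5 and 6.

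Drug metabolism genes were lower in 38 of 49 cases and higher in 5, with a median of -1.05. Ahr, the dioxin receptor, was at 8.65 to 25.9 CPM against 129 to 323 (-3.91), and Nr1i3, the receptor CAR, at 2.02 to 14.1 against 72.1 to 198 (-4.10). Cyp3a11, the main cytochrome of the Cyp3a group, differed by -3.80. Among the 5 higher genes were Cyp2j5, an arachidonic acid epoxygenase, by 0.55 and the sulfotransferase Sult1a1 by 0.70.

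Wnt targets and central-side genes were lower in 22 of 26 cases and higher in 4, with a median of -2.72. The bins were cut by central and portal genes, so this direction was largely set in advance. The list was also chosen with earlier results of these data known. Axin2, a feedback inhibitor and general Wnt target, was at 0.311 to 2.35 CPM against 21.4 to 76.4 (-5.16 ± 0.16). Notum, a secreted enzyme that inactivates Wnt, was at 0.933 to 2.22 against 14.1 to 37.7 (-3.83). The ubiquitin ligases that remove Wnt receptors showed a smaller step from a higher floor, with Rnf43 at 54.8 to 136 against 265 to 721 CPM (-2.31) and Znrf3 at 220 to 271 against 330 to 687 (-0.98). The 4 higher genes were Hsd11b1, which activates glucocorticoid (1.40), Lgr4, a receptor for R-spondin (0.39), Tcf7l2, a Wnt effector (0.34), and Apc, of the destruction complex (0.12, adjusted p = 0.0304). The call on Apc was lost with several settings, among them the omission of any of mice 3 to 8.

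To show promoters at both ends, the 250 bases before a start site are given for 2 Wnt-list genes whose window held a TCF/LEF core and for 2 leading portal genes whose window held none (RefSeq, GRCm38.p6, 5′ to 3′ on the strand of the gene). Capitals mark CTTTGAT read on either strand. Lect2, a secreted hepatocyte protein (0 to 1.88 CPM in the lowest bin, 18.0 to 66.4 in the highest, -5.04), is shown from chr13:56548539-56548788. Tnfrsf19, a Wnt-responsive receptor (medians of 1.16 and 49.2 CPM, -5.65), is shown for its second listed start at chr14:61037988-61038237. Hsd17b13 is shown from chr5:103977389-103977638 and Ctsc from chr7:88277835-88278084.
Lect2: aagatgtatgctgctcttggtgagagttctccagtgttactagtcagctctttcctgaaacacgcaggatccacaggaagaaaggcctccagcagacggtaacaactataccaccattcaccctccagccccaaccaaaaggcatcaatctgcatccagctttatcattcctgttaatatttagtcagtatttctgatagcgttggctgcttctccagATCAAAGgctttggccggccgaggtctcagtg
Tnfrsf19: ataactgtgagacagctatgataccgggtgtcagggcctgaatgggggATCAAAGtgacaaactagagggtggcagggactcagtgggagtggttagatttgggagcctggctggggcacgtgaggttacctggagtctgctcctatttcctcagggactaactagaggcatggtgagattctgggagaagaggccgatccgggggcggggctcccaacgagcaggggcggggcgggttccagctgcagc
Hsd17b13: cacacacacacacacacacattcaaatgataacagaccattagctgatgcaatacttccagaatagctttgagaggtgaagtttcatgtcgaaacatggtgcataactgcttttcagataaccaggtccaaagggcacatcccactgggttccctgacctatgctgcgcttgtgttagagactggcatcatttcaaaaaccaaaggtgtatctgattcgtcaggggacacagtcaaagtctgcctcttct
Ctsc: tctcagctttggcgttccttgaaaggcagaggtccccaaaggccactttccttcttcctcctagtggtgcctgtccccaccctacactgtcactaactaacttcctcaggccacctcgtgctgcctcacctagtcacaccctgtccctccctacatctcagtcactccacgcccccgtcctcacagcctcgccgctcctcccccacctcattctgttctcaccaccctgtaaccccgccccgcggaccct

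The core lay 32 bases before the start in Lect2 and 202 bases before it in Tnfrsf19. It was found in 3 of the 19 Wnt-list genes with a window (15.8%), Sp5 being the third, and in 0 of 20 portal-list genes. All genes tested held it in 3.23% of cases and all windows of the table in 3.21%. Among genes higher by a log2 of at least 1 the share was 2.95%, and among genes lower by as much it was 4.19%. The E-box CACGTG was in 9.12% and 8.78% of these genes and in 8.35% of all tested. The HNF4A-type word CAAAGTCCA was in 0.536%, 1.20% and 0.516%. A match is a word in a window and not a site shown to be bound.

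Of 29 genes taken from earlier work as portal-side, 24 were higher and 5 lower, with a median of 1.48. The bins were cut by portal and central genes, so the direction of this list was largely set in advance. The lists were also chosen with earlier results of these data known. Sfxn1, a mitochondrial serine carrier, was at 225 to 325 CPM against 7.25 to 25.9 (4.14 ± 0.12). Aldh1b1, a mitochondrial aldehyde dehydrogenase, had medians of 4.08 and 0.0801 CPM (5.20), Cyp17a1, a steroid hydroxylase, of 11.3 and 0.770 (3.30), and Sult5a1, a sulfotransferase, of 188 and 20.7 (3.08). The 5 lower genes were Slc22a28 (-0.45), Dpp4 (-0.47), Spp2 (-0.57), Hpd (-0.71) and Socs2 (-1.22). Dpp4 was higher in pooled endothelial nuclei, at 296 CPM, than in either bin.

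Between the ends, more genes of secreted proteins were higher than lower. Of 28 plasma and acute phase genes 15 were higher and 5 lower (median 0.34), and of 34 coagulation and complement genes 21 were higher and 7 lower (median 0.25). Against the middle bins, where 4.27% of all genes were higher and 3.78% lower, the counts were 4 higher and 5 lower, and 3 higher and 7 lower. Alb, albumin, ranged from 2635 to 5098 CPM against 922 to 3241 (1.06). Hpx, hemopexin, differed by 1.51 and Orm1, an acid glycoprotein, by 1.14. Serpina6, the corticosteroid carrier, went the other way at -1.43. The late complement components diverged, with C9 at 1.25 and C6 at -1.89. Lipoprotein genes were 7 higher and 8 lower of 21, and 1 higher and 7 lower against the middle bins. Apoa4 was higher by 2.50, Pltp, which moves phospholipid, lower at -1.23, and Apob had medians of 1318 and 1257 CPM (0.05, adjusted p = 0.490), though it was called on spliced UMIs alone (0.23).

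Regulators and receptors were mixed, beside 10.7% higher and 11.4% lower over all genes tested. Of 48 liver transcription factors 19 were higher and 11 lower (median 0.09), and of 32 hormone and growth factor receptors 7 were higher and 9 lower (median -0.03). Sox9, a factor of bile duct cells and of hepatocytes next to them, was at 0.728 to 7.06 CPM against 0 to 0.741 (3.11 ± 0.32). Tead1, a partner of YAP, was at 86.2 to 156 against 35.1 to 74.6 (1.12), Notch2 was higher by 0.50 and Notch1 lower at -1.12. The estrogen receptor Esr1 was higher by 1.34. Egfr, the receptor for epidermal growth factor, was higher by 0.68, while the receptors for glucagon, insulin and hepatocyte growth factor were not called (Gcgr -0.04, Insr -0.01, Met -0.08), although Met was called without mouse 4 (-0.15).

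Several smaller lists are set beside the 10.7% higher and 11.4% lower over all genes tested between the ends, and some counts were near these shares. Growth hormone axis genes were 4 higher and 6 lower of 15, with Igf1 higher by 1.15 and Igfbp1 lower at -1.26. Both calls were lost with no block for mouse. Of 16 hypoxia genes 3 were higher and 4 lower. The oxygen-sensing hydroxylase Egln3 had medians of 8.24 and 44.2 CPM with no overlap (-2.28), and Pfkfb3, a driver of glycolysis, differed by -2.05. Hif1a and Vegfa were higher, by 0.43 and 0.24, but both calls were lost after thinning and with no block for mouse, and that on Vegfa also on unspliced UMIs and without mice 3, 5 and 6. Clock genes were 7 higher and 2 lower of 18, led by the repressor Cry1 at 0.95. Iron and heme genes were 3 higher and 6 lower of 20, and Slc40a1 was higher by 1.04. Mitochondrially encoded genes were 8 higher and 0 lower of 13 (median 0.20), beside a share of mitochondrial UMIs of 0.147% and 0.141% (exact paired permutation test, adjusted p = 0.0670). Against the middle bins 0 of the 13 were higher and 2 lower (median -0.13), and the share was 0.200% in the second bin.

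Early response genes were 5 higher and 8 lower of 23 in Liver, beside 10.7% and 11.4% of all genes tested. Jun was lower at -0.98, at 7.65 to 76.7 CPM against 42.1 to 92.3, and Gadd45b by -2.83 at levels under 8.33 CPM. Egr1 was called higher (0.86, adjusted p = 0.00131) in 5 of 8 mice only, with mice 3 and 7 the highest at 99.3 and 86.8 CPM, and the call was lost without mouse 3, without mice 3, 5 and 6, on unspliced UMIs, with no block and with DESeq2. Of 10 abundant nuclear noncoding RNAs 5 were higher and 4 lower. Neat1, the scaffold of paraspeckles, ranged from 7066 to 14768 CPM against 4298 to 11227 (0.70). The imprinted Meg3 and Rian were at medians of 0.241 and 0.390 CPM against 13.6 and 5.22 (-5.19 and -4.38).

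Against the 2 middle bins, 984 genes (4.27%) were higher and 871 (3.78%) lower in the lowest bin. Without the block for mouse 215 genes were called. Of the 1855 genes called here 1689 were also called against the highest bin, 1682 of them with the same sign. The comparisons share the lowest bin. The 5 largest positive differences were those of Ctsc (2.78), Chrm3 (2.28), Grm8 (2.21), Reck (2.05) and the long noncoding RNA Gm35696 (1.91). The 5 largest negative ones were those of Cyp2c54 and Tenm3 (-3.50 each), Cyp2a5 (-3.47), Susd4 and Cyp7a1 (-3.44 each). All of these had moved the same way against the highest bin. The call on Chrm3 was lost on spliced UMIs alone, and Gm47405, which lies in Chrm3 on the same strand, was also called (2.73), so their reads may not be separable.

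Genes with a large difference between the ends mostly changed in 1 direction across the bins, an order that choosing them by that difference favours. Of the 155 genes higher by a log2 of at least 1 at 20 CPM or more, 90.3% had means over the mice in steady order over the 4 bins. So had 91.4% of the 198 lower genes. The steps that follow are of log2(mean CPM + 1). The step from the lowest to the second bin held 12.9% of the change in the higher genes (median), the next 37.7% and the last 49.3%. In the lower genes the steps held 17.7%, 45.8% and 36.9%. Over all genes called at this level, 67.7% of 1465 higher and 54.7% of 1518 lower genes were in steady order, and their first step held 22.3% and 7.01%. Cdh1 had medians of 153, 108, 21.2 and 3.54 CPM and Aldh3a2 of 2.66, 4.36, 99.7 and 282. The UMI count per nucleus was not level over the bins, with medians of 10210, 7427, 8994 and 10678.

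A few genes peaked between the ends. Hamp, the iron hormone hepcidin, had medians of 151, 238, 338 and 132 CPM. It was lower in the lowest than in the middle bins (-0.98, adjusted p = 4.78e-14) and was not called between the ends (-0.12, adjusted p = 0.464), though without the filter on low counts it was (-0.14). Igfbp2, a binding protein for insulin-like growth factors, had medians of 319, 422, 534 and 196 CPM, lower at -0.53 than in the middle and higher by 0.65 than at the central end. Scd1, the stearoyl-CoA desaturase, behaved alike, with -0.42 and 0.45. With no block for mouse, the calls of Hamp, Igfbp2 and Scd1 against the middle bins were lost. Cps1 stayed between 5446 and 5989 CPM over the first 3 bins and stood at 3216 in the highest.

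**Figure D3:**
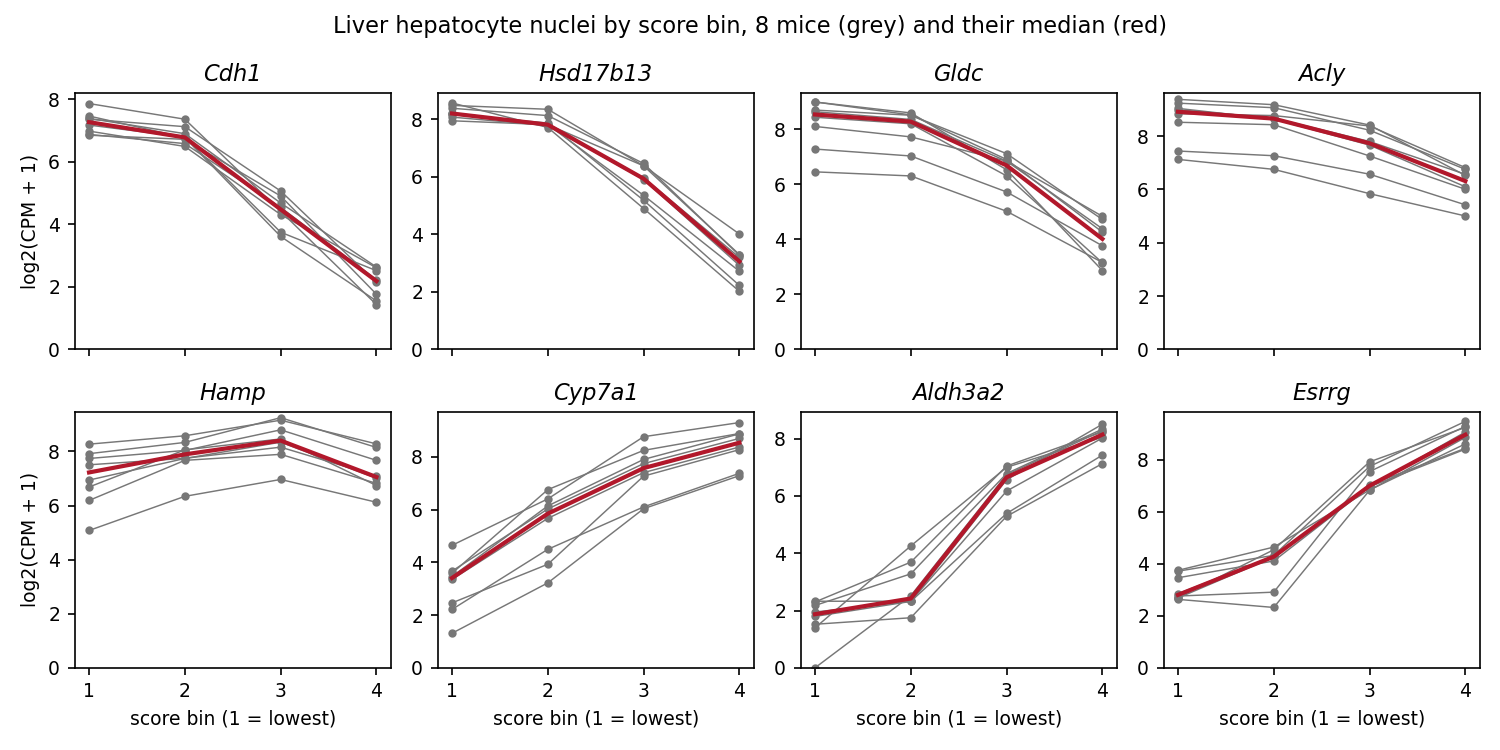
Level of 8 genes, as log2(CPM + 1), in the 4 score bins of Liver hepatocyte nuclei, from the lowest (1) to the highest (4). Grey lines are the 8 mice and the red line is their median. Cdh1, Hsd17b13, Gldc and Acly decline, Cyp7a1, Aldh3a2 and Esrrg climb, and Hamp is highest in the third bin.

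The selected nuclei differed between mice in a limited set of genes. Over 6133 genes with at least 20 CPM the ratio of the highest to the lowest mouse, each plus 1 CPM, had a median of 1.68, and 388 genes (6.33%) reached 4. The share was 6 of 9 for early response genes, 9 of 19 for lipogenesis and glucose use, 6 of 13 for the growth hormone axis and 14 of 40 for drug metabolism. It was 0 of 9 for the urea cycle, where the median ratio was 2.96, above the 1.68 over all genes. The genes that follow were chosen after their values were seen. Onecut1, a liver transcription factor, was at 2078 and 1731 CPM in mice 5 and 6, 381 in mouse 3 and 40.1 to 69.6 in the other 5. Egfr was at 24792, 20005 and 19783 CPM in mice 5, 3 and 6 and at 1570 to 4089 in the others. Igf1 was at 3554, 2665 and 1850 CPM in mice 5, 6 and 3 and at 334 to 624 in the others, and the growth hormone target Socs2 at 137, 29.7 and 47.4 CPM against 1.48 to 7.84. Fgl1, a secreted liver factor, was highest in mouse 3 at 425 CPM and lowest at 4.45. Other genes of this spread ran differently. Pdgfrl was at 237 CPM in mouse 8 and 3.73 to 9.58 in the others, and Noct, nocturnin, at 1034 in mouse 8 and lowest in mice 3 and 5 (24.8 and 51.7). The highest bin of the same mice showed the same ranking for Onecut1, at 1431 and 1330 CPM in mice 5 and 6 and 136 in mouse 3, against 25.1 to 42.8. Samples 1, 2 and 6 of Liver were in pool 6, samples 3, 7 and 8 in pool 1 and sample 5 in pool 5. What part the pool had in these differences between mice was not tested.

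The lowest bin was then compared between sample types. The same score gave 2478 of 9903 nuclei in Cell Suspension, from 78 to 595 per mouse, at a median of 6329 UMIs per nucleus against 10210 in Liver. There, nuclei that the authors' table called Isolated Hepatocytes were scored along with Hepatocytes. The spliced share of UMIs was 22.1% to 26.8% in this bin of Cell Suspension and 16.7% to 20.6% in that of Liver. After thinning to 2000 UMIs the median nucleus held 1105 to 1213.5 and 1193 to 1289 genes. What part this had in the differences below was not tested. Of 19908 genes tested 698 (3.51%) were higher and 1756 (8.82%) lower in Cell Suspension, with a median log2 difference of -0.07 over all genes. Unless the replicate block is named, values of this comparison come from a fit that leaves out the pairing of samples by mouse. The split moved with the scaling. The higher share of calls was 28.4% with TMM, 39.0% with RLE (929 of 2382) and 43.4% with DESeq2 (1203 of 2775). Liver and Cell Suspension samples shared a pool in 2 of 8 mice, and with pool as a term, chosen after seeing the data, 1197 genes were called, of which 1102 were among the 2454. With the replicate block, which pairs the samples of a mouse, 4496 genes were called and 2412 of the 2454 were among them, all with the same sign.

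Early response genes led the increase. Of 22 tested, 16 were higher in Cell Suspension and 0 lower, with a median of 3.27. Atf3, a stress transcription factor, went from 1.04 to 10.1 CPM in Liver to 354 to 1403 in Cell Suspension (7.34 ± 0.43, adjusted p = 1.75e-10). The AP-1 genes followed, Fosb by 7.20, Fos by 6.36 and Jun by 5.48. The fifth, Gm45774 (5.46), lies antisense to the metallothionein gene Mt2. No overlap between the 8 and 8 samples was a condition for naming these 5 genes by size. Egr1 differed by 4.51, Junb by 3.47, Gadd45a by 4.77 and the cytokine inhibitor Socs3 by 4.43. The heme oxygenase Hmox1 differed by 3.29 with overlapping ranges, at 0.410 to 4.45 CPM against 4.35 to 42.5.

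The counts of metabolic lists between the sample types were read against the 3.51% higher and 8.82% lower over all genes. Gluconeogenesis had 5 higher and 0 lower of 14 genes, with Pck1 at 788 to 2028 CPM in Liver and 2879 to 4522 in Cell Suspension (1.26 ± 0.17) and G6pc at 283 to 2261 and 2530 to 4324 (1.40 ± 0.27). Lipogenesis and glucose use had 7 higher and 0 lower of 22, with Fasn at 64.0 to 329 and 644 to 2049 CPM (2.66 ± 0.29). Plasma and acute phase genes had 9 higher and 0 lower of 27, and Fgb, of fibrinogen, differed by 1.95 with overlapping ranges. Igfbp1 differed by 2.50. Amino acid breakdown had 3 higher and 4 lower of 44 genes, drug metabolism 3 and 0 of 49, cholesterol 3 and 1 of 22 and bile acid genes 1 and 1 of 22.

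Of the 29 portal-side genes of earlier work 5 were higher in Cell Suspension and 0 lower, and of the 10 urea and ammonia genes 2 and 0. Other genes that were higher at the portal end were mixed between the sample types. Pck1, G6pc and Fasn were called, as given above, while Cdh1, Gldc and Cps1 were not. Cdh1 had medians of 142 CPM in Liver and 139 in Cell Suspension (-0.02, 95% interval -0.34 to 0.31, adjusted p = 0.978). Gldc had medians of 346 and 435 (0.37, interval -0.32 to 1.06, adjusted p = 0.585) and Cps1 of 5067 and 6579 (0.38, interval -0.12 to 0.88, adjusted p = 0.402). Hsd17b13 was higher by 0.58, a call that was lost with pool as a term. Gldc, Cps1 and Alb passed the threshold with the replicate block. The 5 largest negative differences were those of Adh7, an alcohol dehydrogenase (-1.89, at 59.3 to 149 CPM against 8.69 to 43.6), the vomeronasal receptor gene Vmn1r90 (-1.89) and the noncoding genes 3110056K07Rik (-1.89), 5031425E22Rik (-1.83) and 2310001H17Rik (-1.73). The call on Vmn1r90 was lost on unspliced UMIs and that on 3110056K07Rik, which overlaps Psma3 on the other strand, on spliced UMIs. Foxa3, a liver transcription factor, was lower at -1.64 with no overlap.

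**Figure D4:**
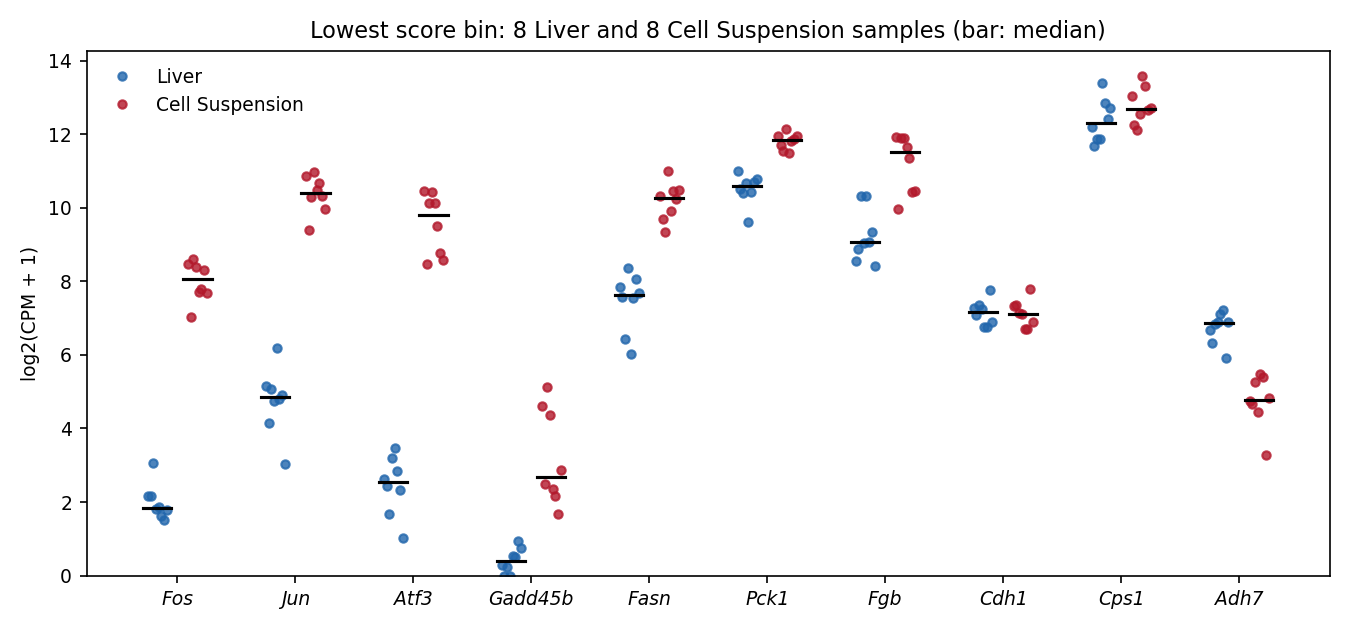
Level of 10 genes, as log2(CPM + 1), in the lowest score bin of 8 Liver (blue) and 8 Cell Suspension samples (red). Each point is 1 sample and bars are medians. Fos, Jun and Atf3, named by size among genes with no overlap, do not overlap between the sample types, while Cdh1 and Cps1 do.

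The difference between the ends was itself compared between Cell Suspension and Liver. Of 22350 genes tested 86 (0.385%) had a lowest-minus-highest difference that was higher in Cell Suspension and 287 (1.28%) one that was lower. The higher share of calls was thus 23.1%, against 11.7% with RLE scaling and 46.8% (282 of 602) for nuclei with a demultiplexing margin above the median. Cdh1 differed less between the ends in Cell Suspension, by -1.35 ± 0.28 (adjusted p = 0.00164). Its highest bin had a median of 8.21 CPM there and 3.38 in Liver, with lowest bins of 138 and 141. On spliced UMIs alone this value was 0.30 and was not called, and the call was also lost with DESeq2 and after thinning each nucleus to 2000 UMIs. Sfxn1 had a value of -0.97, a call lost under the same 3 settings and with filterByExpr. The difference of Pparg was less negative in Cell Suspension (1.39 ± 0.30), with medians of 3.99 CPM in the lowest bin there and 1.78 in Liver and of 107 and 132 in the highest. This call, too, was lost after thinning and on spliced UMIs. The other positive values named by size were those of AC102159.1 (1.82), Gna14 (0.94), 1700023H06Rik (0.91, antisense to Arrdc3) and Tox (0.84). Of 21 alternatives, 14 ended the call on AC102159.1, 13 that on Gna14 and 11 that on Tox, as did 4 of 20 for 1700023H06Rik.

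Some genes that were higher in Cell Suspension than in Liver had the smaller step in the portal nuclei. Irs2, an adaptor of the insulin receptor, had medians of 50.5 and 46.8 CPM at the portal and central ends of Liver and of 124 and 376 in Cell Suspension (-1.52 ± 0.12, adjusted p = 7.61e-15). Nr4a1, an early nuclear receptor, went from 6.30 and 3.45 to 55.0 and 109 CPM (-1.83), and Pdk4, which restrains pyruvate oxidation, from 1.08 and 6.19 to 3.41 and 88.1 (-1.71). The call on Pdk4 was lost on spliced UMIs, after thinning, with DESeq2 and without mice 3, 5 and 6, and that on Fos under the same settings but DESeq2. Egr1 (-1.29), Fos (-1.27) and Gadd45g (-1.26) had values of the same sign, and Jund (0.64) the opposite one. Slc22a3 (-2.37) overlaps Plg and Dlec1 (-2.12) overlaps Acaa1b on the other strand, so their reads cannot be assigned with certainty. Of 14 endothelial markers 0 had a higher and 2 a lower value, with a median of -0.87, beside 0.385% and 1.28% of all genes tested. What part endothelial RNA had in these values was not tested. The nuclei of Cell Suspension had fewer UMIs, and 235 genes were called without mouse 2 and 205 without mouse 4, against 373 with all mice.

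In Primary Hepatocytes 14266 nuclei of at least 2000 UMIs were taken as hepatocytes. The authors' table called them Cultured Cells, and they came from clusters read here as hepatocytes. They were not scored, and all of them are set beside the portal bin on a joint scale with no test. Cdh1 ranged from 92.6 to 176 CPM in culture and from 112 to 230 in the portal bin of Liver. Gldc ranged from 102 to 230 CPM in culture at a Liver portal median of 367, and Hsd17b13 from 65.7 to 211 at a median of 291. On the scale of the Liver fit the portal bin ranged from 86.8 to 511 CPM for Gldc and from 246 to 379 for Hsd17b13. Cps1 ranged from 346 to 1815 CPM against 3421 to 11255, Arg1 from 49.6 to 279 against 535 to 1863, and Pck1 from 13.4 to 30.5 against 828 to 2106. Atf3, at 62.3 to 113 CPM in culture, lay between portal nuclei of Liver (1.07 to 10.6) and of Cell Suspension (370 to 1498).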

How the data were processed

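The authors made 10x Genomics 3' libraries (version 3.1 kits) from 6 pools of 4 hashtagged samples, and the deposited matrices hold raw UMI counts for each gene and barcode, with a matrix part for each splicing state (spliced, unspliced or ambiguous). The authors quantified them with Salmon Alevin and Alevin-fry against a GRCm38 transcriptome after bcl2fastq 2.19.0. Whether counting used strand is not given in the sources used here. The authors' table of nuclei gives the sample, cluster and cell type, counts per nucleus and a demultiplexing margin as a fraction, after the authors removed doublets with scDblFinder. No further doublet step was run. One hashtag, labelled CD2, was read as Cell Suspension of mouse 2, since the authors' table places its nuclei in that group and mouse 2 otherwise had no such sample. The hashtag matrices were not used, nor were the study's bulk RNA and protein data.

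The 3 splicing states were added. UMIs were summed per sample and score bin after removal of the 16 score genes, and genes with at least 10 counts over the sums of a fit were tested (edgeR 4.0.16, R 4.3.3, TMM, quasi-likelihood, Benjamini-Hochberg over all genes tested, threshold 0.05). Bins of Liver were compared over 32 sums with mouse as a block, sample types over 16 sums without a block, and the difference of differences with sample as a block. Standard errors are those of the log2 difference. CPM values are per library and TMM-scaled within a fit, carry no gene length and are not compared between genes. The 12 paired values were tested by exact sign flips over 8 mice. The edgeR fits of these comparisons were tested on simulated counts with known changes. The simulated means held no differences between mice, so this does not show how the fits deal with such differences. Sums held 1724783 to 7072334 UMIs in the lowest bin of Liver and 440543 to 5410267 in that of Cell Suspension. In droplet data free RNA adds UMIs of genes a nucleus does not express, so pooled levels in Liver endothelial nuclei, unscaled, stand beside low values.

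Genes were named by size of difference (12 and 12 for the ends of the score in Liver, 5 and 5 elsewhere, with at least 20 CPM, the same sign in 8 of 8 mice or, between sample types, no overlap) or as members of 30 gene lists. For the difference of differences only the call and the level were required. The study took the 3 sample types in turn during an isolation and refers to its mice by number, so samples of 1 number were taken as 1 mouse. In the lowest bin the deviations of Liver and Cell Suspension samples from their group means correlated at 0.46 to 0.86 over 5780 genes, each sample best with its own number. The nuclei and the lists were chosen with earlier results of these data known. Alternatives were other normalizations and filters, DESeq2 1.42.0, the block, single splicing states, thinning, other score genes, bins and UMI minimums, the margin, and omission of mice. Of 32285 gene IDs 32158 have a symbol.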

Additional observations from a re-analysis of the deposited data

Results flagged for a closer look

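Of 69 groups of 8 values tested, 7 had 1 mouse farther from the other 7 than Dixon's limit for 8 samples, where chance gives about 1 in 20. The groups were named genes in the lowest bin of Liver, some genes also in that of Cell Suspension, and values per Liver sample. All 7 were genes in the lowest bin of Liver. Mouse 3 stood at 324 CPM for Chrm3 (median 67.7) and at 7.77 for Fos (median 2.76). Mouse 6 stood at 24.0 CPM for Cyp7a1 (median 9.61) and at 52.1 for Tox (median 14.4). Mouse 5 stood at 76.7 CPM for Jun (median 29.9), mouse 4 at 28.4 for Nr4a1 (median 6.74) and mouse 2 at 10.0 for Gm45774 (median 0.233).

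For 16 named genes the difference between the ends of the score differed between Cell Suspension and Liver by the test of that difference. The log2 values were lower in Cell Suspension for Slc22a3 (-2.37), Dlec1 (-2.12), Nr4a1 (-1.83), Pdk4 (-1.71), Irs2 (-1.52), Cdh1 (-1.35), Egr1 (-1.29), Fos (-1.27), Gadd45g (-1.26) and Sfxn1 (-0.97). They were higher for AC102159.1 (1.82), Pparg (1.39), Gna14 (0.94), 1700023H06Rik (0.91), Tox (0.84) and Jund (0.64). Of 21 alternatives, AC102159.1 lost the call under 14, Gna14 under 13 and Tox under 11. Pdk4 and Sfxn1 lost it under 4, Cdh1 and Fos under 3, Egr1, Pparg and Slc22a3 under 2, and Dlec1 and Gadd45g under 1. The call on 1700023H06Rik was lost under 4 of 20. Irs2 and Nr4a1 kept it under 21 of 21 and Jund under 20 of 20.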

How the results depend on the processing

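Counts of genes called moved with several choices, and the cause was not tested unless fewer genes or samples are part of the choice. Between the ends of the score in Liver 5093 genes were called, against 1321 at 2-fold or more, 2071 with no replicate block, 2674 on spliced UMIs alone and 2690 after thinning each nucleus to 2000 UMIs. Leaving out each mouse in turn gave 4683 to 5010. Against the middle bins 1855 were called, and the same 4 choices gave 245, 215, 785 and 830, with 1554 to 1777 when a mouse was left out. Between Cell Suspension and Liver 2454 were called, against 1163 at 2-fold or more, 4496 with the replicate block, 1197 with pool as a term (chosen after seeing the data), 1476 without mice 3, 5 and 6, 1479 on spliced UMIs and 1164 after thinning, with 1715 to 2185 when a mouse was left out. For the difference between sample types in the gap between the ends, 373 were called, against 84 at 2-fold or more, 160 on spliced UMIs, 234 after thinning, 240 for nuclei of at least 4000 UMIs and 602 for nuclei with a demultiplexing margin above the median. Leaving out a mouse gave 205 (mouse 4) to 433 (mouse 3), with 235 without mouse 2. With RLE scaling 11.7% of these calls were higher, against 23.1% with TMM.

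On spliced UMIs alone the sign of Apc turned (-0.02 between the ends in Liver), as did that of Cdh1 for the gap between sample types (0.30), and the calls on Cry1, Msmo1, Spp2 and Themis between the ends and on Fgb between sample types were lost. On unspliced UMIs those on Apoa4 and Junb were lost. Thinning before scoring brought 3 paired differences past the threshold, UMIs per nucleus (-1735, adjusted p = 0.0134), genes per nucleus (-349, adjusted p = 0.0208) and the mitochondrial share (0.0286 percentage points, adjusted p = 0.0134), by the exact paired permutation test. Without thinning they were -1092, -180 and 0.0169. Also without thinning, they were -1420 to -831, -239 to -133 and 0.0139 to 0.0210 when a mouse was left out. The mitochondrial share then had an adjusted p of 0.0268 in the exact paired permutation test without mouse 4. Of the named genes' values between the ends in Liver 2825 stayed on the same side of the threshold and 61 lost the call, 29 of them with no replicate block. Among these were Igf1, Igfbp1, Igfbp2, Egfr, G6pc, C6, C9, Cdo1, Cyp2j5, Cyp4a14, Notch1, Slc7a2, Slc22a28, Slc40a1, Socs2, Spp2, Sult1a1 and Tcf7l2. The low counts per bin limit the genes under a few CPM, whose folds rest on few UMIs.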
